A study of Homo sapiens with 16 samples.

Results

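The mRNAs described here are those of the proteasome, taken as every gene in the deposited table whose symbol begins with PSM, a letter from A to G and a digit, and whose abundance was at least 1 CPM (counts scaled to library size). There were 49 such genes among 16241 genes tested and 60564 rows in the table. One further symbol matched, PSMB11, a beta subunit of thymic epithelium, and it was left out because its CPM was 0 and its rate was 0 in all 16 libraries. The 49 comprised 8 alpha subunits and 7 constitutive beta subunits of the 20S core, 3 immunoproteasome beta subunits, 6 ATPases of the 19S regulatory particle, 14 genes with the PSMD (19S non-ATPase) symbol, 4 activators, 1 inhibitor and 4 assembly chaperones. The other 2, PSMC3IP and PSME3IP1, are named for binding a proteasome protein and are not subunits. The PSMD symbols include chaperones that help to assemble the 19S particle, such as PSMD5 and PSMD10, so the label of proteasome subunits covers most but not all of the list.

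The study applied SLAM-seq, which follows RNA turnover, to the human monocytic leukaemia line THP-1, either with ALKBH5 knocked down (the label is A5-KD) or wild type, called control here. ALKBH5 is an enzyme that erases the RNA mark m6A, methylated adenosine; how it was knocked down is not given in the sources used here. All cells received 4-thiouridine (4sU), a uridine analogue read as T-to-C conversions in sequencing, for 1 h, followed by a chase in excess uridine of 0, 1.5, 4.5 or 7.5 h. Each of the 8 combinations of genotype and time had 2 libraries of polyadenylated RNA, and nothing says that these came from separate cultures, so the p-values may measure technical spread only. The table names its columns by letter, and those beginning with S were taken as knockdown by elimination, so every direction between the genotypes rests on that reading.

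The proteasome degrades proteins tagged with ubiquitin. Its core is a barrel of stacked alpha and beta rings: the alpha rings gate the entrance and the beta rings hold the proteolytic sites. The 19S particle caps the barrel, binds ubiquitin chains, removes them and unfolds the substrate with its ATPase ring, while other caps and chaperones open, block or assemble the core. In cells of the immune system, interferon-induced beta subunits take the place of the constitutive catalytic ones and favour peptides for antigen presentation. The subunits are needed in fixed proportions, and their mRNAs are known as long-lived housekeeping messages.

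The measurement is the T-to-C conversion rate of each gene in each library, given in percent. As a share of bases it declines both when labelled molecules decay and when new unlabelled ones are added, and it carries no information on amount. The number of bases behind each rate, and so the depth, is unknown. Mismatches that arise without label were not measured, since unlabelled libraries were not used here. Replicates ranked the 49 genes alike to different degrees, with Spearman correlations from 0.585 in knockdown at 7.5 h to 0.929 in knockdown at 0 h. Of 10 monocytic markers 9 had a CPM of at least 1, with LYZ at 1276 CPM and MPO at 0.185. ALKBH5 itself had rates of 3.31% and 2.46% in knockdown at 0 h, against 0.812% and 0.386% in control; as shares these do not check the knockdown.

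Proteasome mRNAs had low conversion rates at 0 h and similar medians through the chase, while the median over all genes was higher at 0 h and lower at each later time. Their median rate in knockdown was 0.652% before the chase, 0.765% after 1.5 h, 0.803% after 4.5 h and 0.672% after 7.5 h. In control it was 0.314%, 0.327%, 0.325% and 0.309% at the same times. Over all 16241 genes the medians were 1.22%, 1.12%, 0.753% and 0.552% in knockdown and 0.580%, 0.495%, 0.334% and 0.266% in control. Proteasome mRNAs thus lay below the typical gene at 0 h and above it at 7.5 h in both genotypes. The median ratio of the rate at 7.5 h to that at 0 h was 1.18 in knockdown and 1.13 in control, against 0.506 in knockdown and 0.538 in control over all genes.

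A slope, in log2 per hour of chase, was fitted for each genotype with limma to log2(rate in percent + 0.05) over all 16 libraries, and a gene was said to rise or fall where the adjusted p over all genes was below 0.05. In knockdown 15 proteasome mRNAs rose, in a comparison that called 4.06% of all genes as rising, and 9 fell, where 37.9% of all genes fell. The median slope was 0.03 for the 49 and −0.13 for all genes. The members were more abundant than most genes, with a median CPM of 127 against 12.9 for 12236 tested genes with a matched mRNA. Whether abundance bears on the shares called, here and in the other comparisons, was not tested. In control 14 rose (3.45% of all genes) and 8 fell (34.4%), with a median slope of 0.02 against −0.11 for all genes. Relative to the median of each library 35 of the 49 were higher in knockdown (17.7% of all genes) and 0 lower (8.62%), and in control 30 were higher (17.6%) and 1 lower (9.46%).

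Of the 15 that rose in knockdown 11 kept the call with each library left out in turn, as did 5 of the 14 that rose in control. Of those that fell, 3 of 9 in knockdown and 5 of 8 in control kept it. The number that fell in knockdown dropped to 5 without knockdown 7.5 h replicate 1. The number that rose in control was 8 without control 0 h replicate 1 and 7 without control 7.5 h replicate 1.

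**Figure D1:**
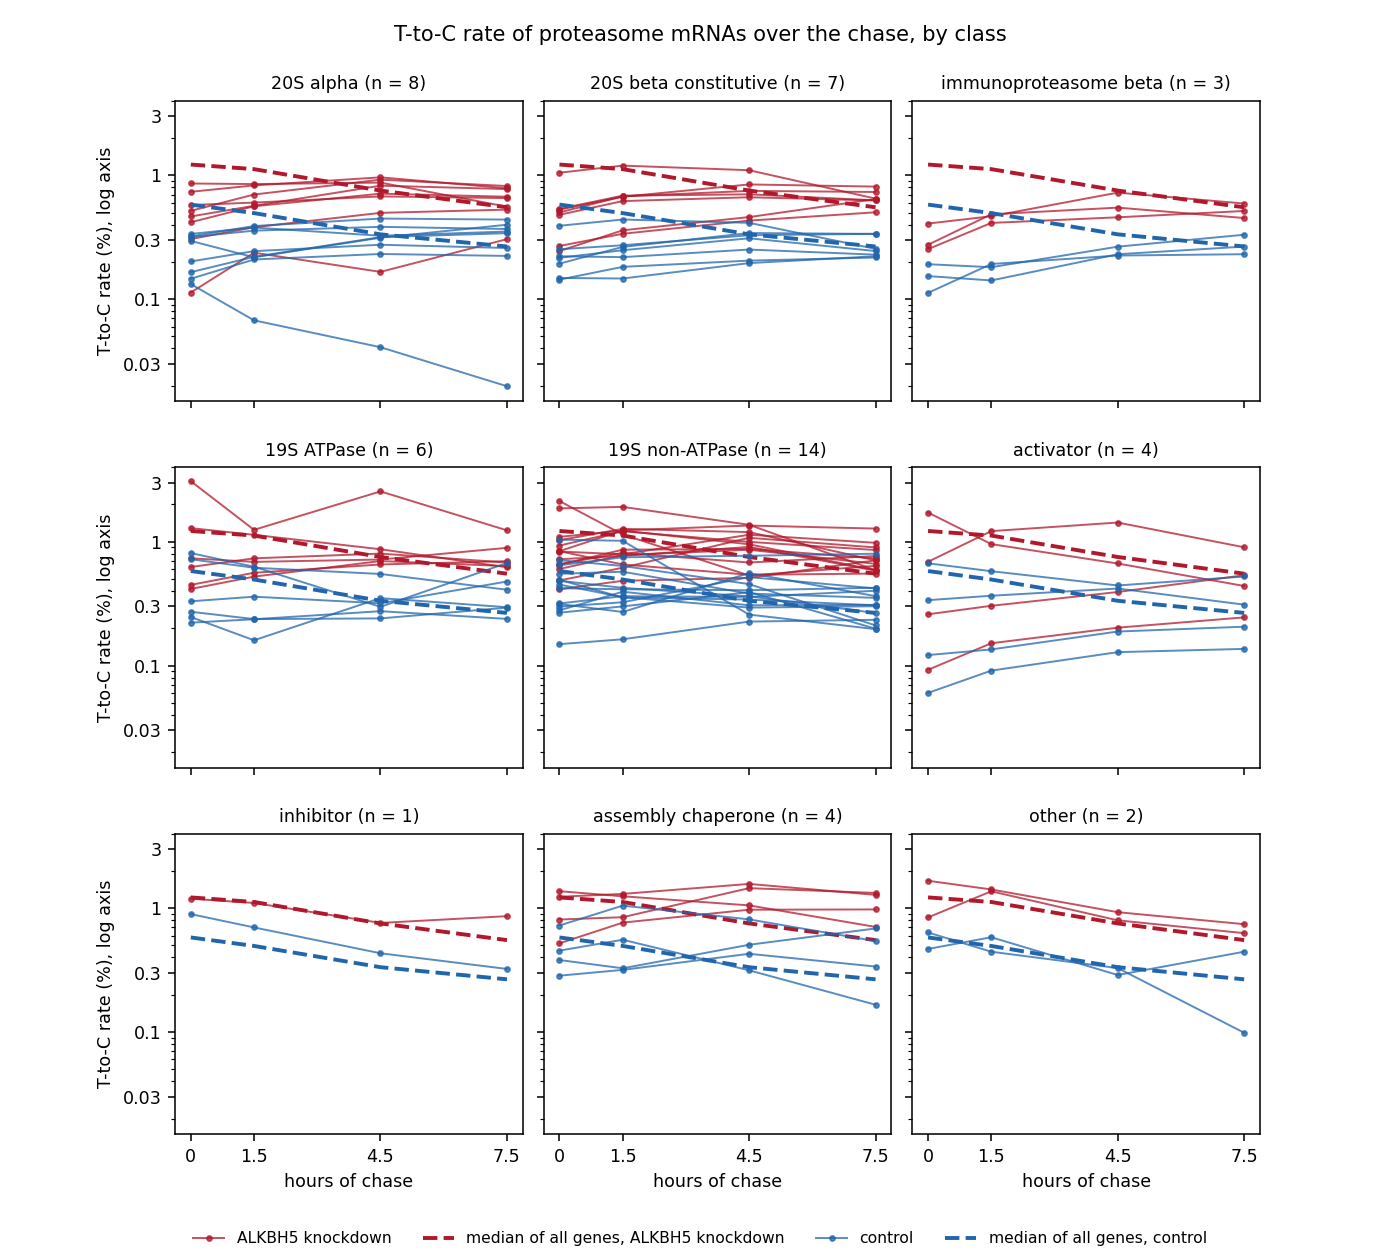
Mean T-to-C rate of 2 libraries, in percent on a log axis, over hours of chase for each of the 49 genes, in 9 panels by class, with knockdown in red, control in blue and the median of all 16241 genes dashed. The solid lines of the 20S and immunoproteasome panels are mostly level or upward while the dashed medians decline, and the 19S non-ATPase panel holds lines that go both ways.

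The 3′ untranslated regions (UTRs) differed widely between members, and their lengths and sequences are given here because they were compared with the slopes. Lengths came from 1 transcript per gene of GENCODE 29 on hg38. PSME2 had 44 bases, PSMB9 53, PSMB6 81 and PSMB5 238, while PSMD12 had 2927, PSMF1 3298 and PSMA4 3475. The median was 337 bases for the 49 genes and 1061 for 12236 tested genes with a matched mRNA. TATTTAT, a form of the AU-rich element, was found in the 3′ UTR of 6 members. One window of each is shown with the pentamer ATTTA in capitals, beside PSMB6, whose single ATTTA has no such flanks.
PSMB5, chr14:23025993-23026019, minus strand: tcctccatcctATTTAtagtggaaggg
PSMD12, chr17:67339522-67339548, minus strand: atatctgtcatATTTAtcctgtgagtc
PSMC3IP, chr17:42572677-42572703, minus strand: catttggcaatATTTAttataatttaa
PSMB2, chr1:35602327-35602353, minus strand: tttttagatttATTTAtttatttagag
PSME3, chr17:42842602-42842628, plus strand: tatttctctttATTTAtagtgtcgggc
PSMG1, chr21:39175424-39175450, minus strand: tttaattccttATTTAtggtggtatta
PSMB6, chr17:4798460-4798486, plus strand: actgatgcaaaATTTAataaagtttgt

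The alpha subunits, which form the outer rings of the core, held more rises than falls, and relative to the library medians no member fell. In knockdown 4 of 8 rose (4.06% of all genes) and 1 fell (37.9%), and in control 3 rose (3.45%) and 1 fell (34.4%). The median slopes were 0.08 in knockdown and 0.04 in control. PSMA2 had the steepest rise of the class in control. In knockdown, PSMA2 stood at 0.479% and 0.452% before the chase, 0.527% and 0.608% after 1.5 h, 0.848% and 0.803% after 4.5 h, and 0.817% and 0.733% after 7.5 h. In control the same times gave 0.157% and 0.173%, 0.261% and 0.178%, 0.279% and 0.355%, and 0.411% and 0.271%. Within each genotype both libraries at 7.5 h lay above both at 0 h, and knockdown lay above control at every time. The slope was 0.10 in knockdown (SE 0.0264, limma adjusted p = 0.00834) and 0.11 in control (SE 0.0264, limma adjusted p = 0.00315), and both calls held without any 1 library.

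PSMA4 rose in knockdown at 0.08 (SE 0.0207, limma adjusted p = 0.00529). The PSMA4 rates in knockdown were 0.496% and 0.537% before the chase, 0.683% and 0.717% after 1.5 h, 0.985% and 0.861% after 4.5 h, and 0.863% and 0.776% after 7.5 h. The control libraries held 0.343% and 0.30%, 0.377% and 0.402%, 0.427% and 0.468%, and 0.440% and 0.438% at those times. In each genotype both libraries at 7.5 h lay above both at 0 h. The control slope of 0.05 missed the threshold (limma adjusted p = 0.0673) and passed it without knockdown 4.5 h replicate 1 (adjusted p = 0.0402). PSMA1, a further alpha subunit, fell in knockdown at −0.07 (SE 0.0244, limma adjusted p = 0.0302) and had a slope of −0.00 in control (limma adjusted p = 0.924), while relative to the library medians it was higher in both (0.08 in knockdown and 0.13 in control). The fall in knockdown did not pass without knockdown 1.5 h replicate 1 or without either knockdown library at 7.5 h, with slopes from −0.08 to −0.06 over the left-out libraries and an adjusted p up to 0.156. PSMA1 had 0.559% and 0.557% in knockdown at 7.5 h, below both libraries at 0 h (0.865% and 0.853%).

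PSMA8, the alpha subunit of the testis form of the proteasome, was listed at the lowest rates of its class and ran opposite ways in the genotypes. The PSMA8 rates in knockdown were 0.0929% and 0.133% before the chase, 0.101% and 0.374% after 1.5 h, 0.188% and 0.144% after 4.5 h, and 0.272% and 0.338% after 7.5 h. Libraries of control cells held 0.131% and 0.133%, 0.0376% and 0.0972%, 0.0600% and 0.0218%, and 0% and 0.0396% at those times. The genotypes overlapped at 0 h and lay apart at 7.5 h. Libraries at 7.5 h and 0 h that do not overlap in either genotype and move opposite ways were found in 2.24% of all genes. PSMA8 was the 1 member listed at 0 in any library, at a CPM of 20.4. It fell in control (slope −0.18, SE 0.0554, limma adjusted p = 0.0194), a call that ended without control 0 h replicate 1 (−0.16, adjusted p = 0.0616), control 0 h replicate 2 (−0.16, adjusted p = 0.0634) or control 7.5 h replicate 1 (−0.14, adjusted p = 0.113). The slope of 0.12 in knockdown did not pass (limma adjusted p = 0.0999) and did without knockdown 1.5 h replicate 2 (0.15, adjusted p = 0.0134). Relative to the library medians PSMA8 was higher in knockdown (0.27, limma adjusted p = 0.00162), and its control slope did not pass (−0.04, limma adjusted p = 0.618).

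The catalytic subunits of the constitutive core followed separate courses. PSMB5 carries the chymotrypsin-like site, the main target of proteasome inhibitor drugs. PSMB5 in knockdown had 1.05% in both libraries before the chase, 1.15% and 1.25% after 1.5 h, 1.11% and 1.09% after 4.5 h, and 0.691% and 0.606% after 7.5 h. Control values over these times were 0.402% and 0.381%, 0.457% and 0.422%, 0.453% and 0.374%, and 0.287% and 0.222%. In each genotype both libraries at 7.5 h lay below all earlier ones. The change from 1.5 h to 7.5 h was −0.84 log2 in knockdown (SE 0.144, limma adjusted p = 0.00153) and −0.69 in control (SE 0.144, limma adjusted p = 0.00589), and both calls held with each library left out. They were close to the changes of the typical gene, −0.85 in knockdown and −0.67 in control, and turned to 0.13 in knockdown and 0.11 in control relative to the library medians. Over the whole chase the PSMB5 slope was −0.09 in knockdown (SE 0.0283, limma adjusted p = 0.0177), which turned to 0.06 when centred, and −0.07 in control (limma adjusted p = 0.0509). The knockdown call ended without knockdown 7.5 h replicate 1 (−0.08, adjusted p = 0.0844) or replicate 2 (−0.06, adjusted p = 0.146). The control slope passed without control 0 h replicate 2 (−0.09, adjusted p = 0.0438), or control 4.5 h replicate 1 (−0.08, adjusted p = 0.0273), and also when either knockdown 4.5 h replicate 1 (adjusted p = 0.0481) or knockdown 7.5 h replicate 2 (adjusted p = 0.0435) was left out.

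PSMB6, which carries the caspase-like site, rose through the whole chase in knockdown. In knockdown, PSMB6 stood at 0.248% and 0.240% before the chase, 0.384% and 0.336% after 1.5 h, 0.450% and 0.470% after 4.5 h, and 0.651% and 0.634% after 7.5 h. Over the same times control gave 0.166% and 0.122%, 0.162% and 0.203%, 0.228% and 0.182%, and 0.187% and 0.247%. In knockdown no 2 neighbouring times overlapped, while in control they did. The knockdown slope of 0.15 was the steepest rise among the 49 (SE 0.0203, limma adjusted p = 2.28e-05). The mean rate at 7.5 h was 2.63 times that at 0 h in knockdown and 1.51 times in control. The control slope was 0.06 (SE 0.0203, limma adjusted p = 0.0395). That control call ended without control 0 h replicate 1 (0.06, adjusted p = 0.0553) or replicate 2 (0.04, adjusted p = 0.188), control 1.5 h replicate 1 (0.05, adjusted p = 0.0602), control 4.5 h replicate 1 (0.05, adjusted p = 0.0524) or control 7.5 h replicate 2 (0.04, adjusted p = 0.174).

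PSMB7, which carries the trypsin-like site, had no called slope before centring. The PSMB7 rates in knockdown were 0.564% and 0.507% before the chase, 0.735% and 0.635% after 1.5 h, 0.688% and 0.717% after 4.5 h, and 0.560% and 0.696% after 7.5 h. The control libraries held 0.217% and 0.227%, 0.216% and 0.221%, 0.233% and 0.270%, and 0.274% and 0.183% at those times. The libraries at 7.5 h and 0 h overlapped in both genotypes, and the slopes were 0.02 in knockdown (limma adjusted p = 0.535) and 0.01 in control (limma adjusted p = 0.825). Relative to the library medians PSMB7 was higher in both, at 0.17 in knockdown (limma adjusted p = 4.85e-05) and 0.14 in control (limma adjusted p = 2.84e-04). At 0 h the catalytic mRNAs ranked PSMB5, PSMB7 and then PSMB6 in both genotypes, with no overlap between neighbours. At 7.5 h the 3 overlapped one another in both genotypes. Among the remaining constitutive beta subunits, which line the ring without a proteolytic site, PSMB1 rose in both genotypes. PSMB1 in knockdown had 0.530% and 0.527% before the chase, 0.686% and 0.657% after 1.5 h, 0.861% and 0.828% after 4.5 h, and 0.772% and 0.849% after 7.5 h. In control cells the values were 0.179% and 0.208%, 0.260% and 0.268%, 0.362% and 0.322%, and 0.299% and 0.373%. Both libraries at 7.5 h lay above both at 0 h in each genotype. The PSMB1 slope was 0.07 in knockdown (SE 0.0216, limma adjusted p = 0.0112) and 0.08 in control (SE 0.0216, limma adjusted p = 0.00568), and both calls held without any 1 library.

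**Figure D2:**
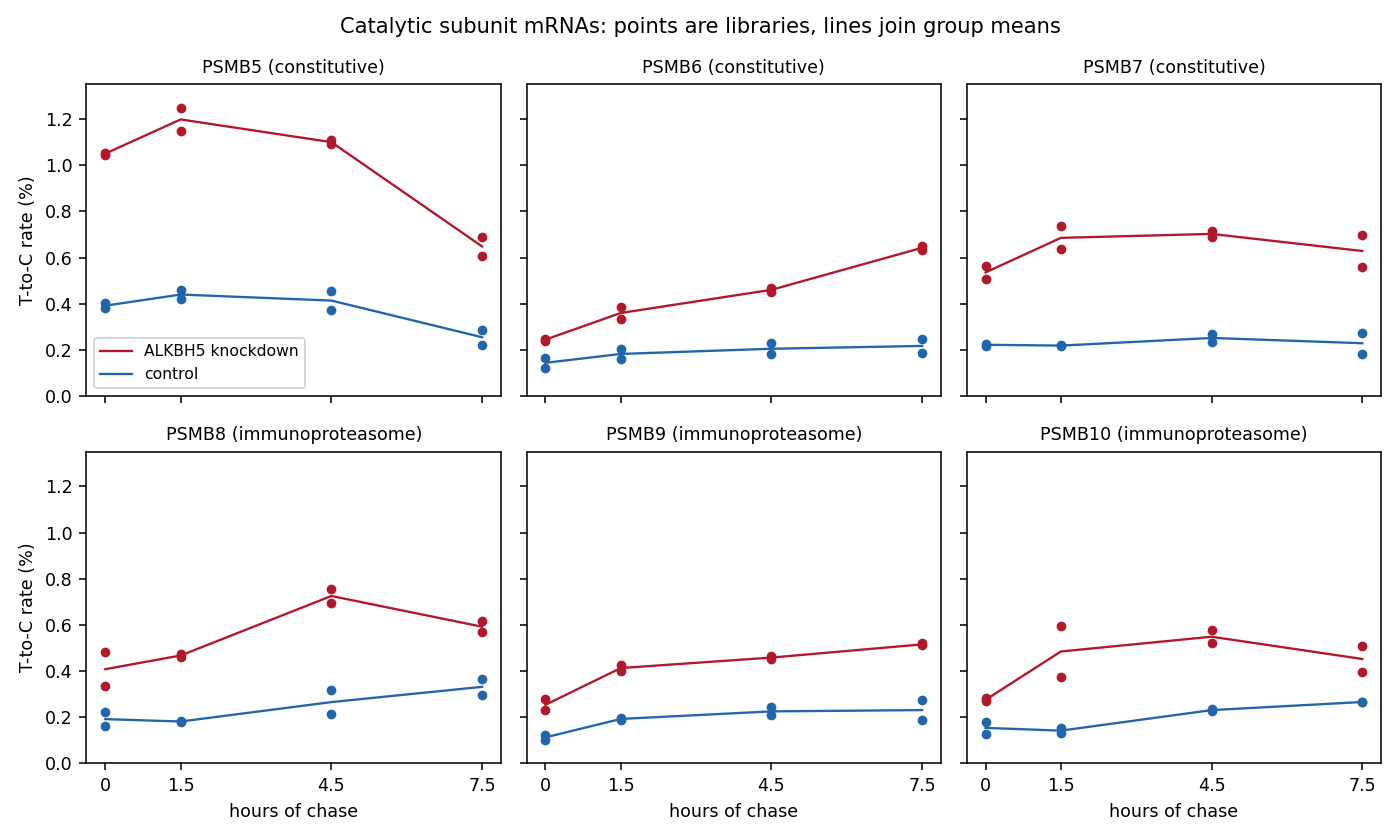
T-to-C rate in percent over hours of chase for the constitutive catalytic subunits PSMB5, PSMB6 and PSMB7 and their immunoproteasome counterparts PSMB8, PSMB9 and PSMB10, with knockdown in red and control in blue; points are libraries and lines join the means of 2. PSMB5 drops after 4.5 h in both genotypes, PSMB6 climbs in knockdown to 0.651% and 0.634%, and the immunoproteasome mRNAs end above their 0 h points.

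The immunoproteasome subunits started lower than most members. Of the 3, 2 rose in knockdown (4.06% of all genes) and 3 in control (3.45%). Each mean at 7.5 h was at least 1.45 times that at 0 h, against a median ratio over all genes of 0.506 in knockdown and 0.538 in control. Their median rates were 0.275%, 0.467%, 0.549% and 0.515% in knockdown and 0.154%, 0.181%, 0.231% and 0.266% in control at 0, 1.5, 4.5 and 7.5 h. PSMB8 is the counterpart of PSMB5. In knockdown, PSMB8 stood at 0.480% and 0.335% before the chase, 0.461% and 0.473% after 1.5 h, 0.693% and 0.757% after 4.5 h, and 0.569% and 0.615% after 7.5 h. In control the same times gave 0.220% and 0.163%, 0.178% and 0.184%, 0.317% and 0.213%, and 0.366% and 0.296%. Its 7.5 h libraries lay above its 0 h ones in both genotypes, in contrast to PSMB5. The slope was 0.08 in knockdown (SE 0.0278, limma adjusted p = 0.0326) and 0.10 in control (SE 0.0278, limma adjusted p = 0.0107). The knockdown call ended without knockdown 0 h replicate 2 (0.05, adjusted p = 0.159) or knockdown 1.5 h replicate 1 (0.08, adjusted p = 0.0522), and the control call without control 7.5 h replicate 1 (0.08, adjusted p = 0.0666).

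PSMB9 is the counterpart of PSMB6. The PSMB9 rates in knockdown were 0.229% and 0.278% before the chase, 0.427% and 0.399% after 1.5 h, 0.466% and 0.450% after 4.5 h, and 0.511% and 0.519% after 7.5 h. Libraries of control cells held 0.102% and 0.123%, 0.197% and 0.188%, 0.242% and 0.208%, and 0.274% and 0.187% at those times. In knockdown both libraries at 7.5 h lay above all earlier ones. The slope was 0.10 in knockdown (SE 0.0270, limma adjusted p = 0.00596), where the call held with each library left out. In control it was 0.09 (SE 0.0270, limma adjusted p = 0.0157), and the call ended without control 0 h replicate 1 (0.07, adjusted p = 0.0845) or replicate 2 (0.08, adjusted p = 0.0596) or control 7.5 h replicate 1 (0.08, adjusted p = 0.0788). Annotated exons of PSMB8 and PSMB9 overlap on opposite strands of chromosome 6. The use of strand in the counting is not given in the sources used here, so reads from the overlap could count for either.

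PSMB10 is the counterpart of PSMB7. PSMB10 in knockdown had 0.269% and 0.281% before the chase, 0.595% and 0.374% after 1.5 h, 0.578% and 0.520% after 4.5 h, and 0.395% and 0.509% after 7.5 h. Control values over these times were 0.127% and 0.180%, 0.152% and 0.131%, 0.236% and 0.225%, and 0.265% and 0.266%. The libraries at 7.5 h lay above those at 0 h in both genotypes. The control slope was 0.10 (SE 0.0329, limma adjusted p = 0.0238), a call that ended without control 0 h replicate 1 (0.09, adjusted p = 0.0723) or control 7.5 h replicate 1 (0.10, adjusted p = 0.0598) or replicate 2 (0.10, adjusted p = 0.0600). The knockdown slope of 0.07 did not pass (limma adjusted p = 0.110) and did without knockdown 1.5 h replicate 1 (0.09, adjusted p = 0.0237) or knockdown 7.5 h replicate 1 (0.11, adjusted p = 0.0354). A same-strand gene shared 38.9% of the 50-base windows of the PSMB10 mRNA, so its reads could be split.

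The ATPases of the 19S ring, which thread substrates into the core, showed few calls before centring. In knockdown 1 of 6 rose (4.06% of all genes) and 1 fell (37.9%), and in control 0 rose (3.45%) and 0 fell (34.4%). Of the 6 slopes 4 were above 0 in each genotype. Relative to the library medians 4 were higher and 0 lower in knockdown (17.7% and 8.62% of all genes). The same counts held in control (17.6% and 9.46%). PSMC6 fell in knockdown, and not relative to the library medians. PSMC6 in knockdown had 1.2% and 1.38% before the chase, 1.32% and 0.950% after 1.5 h, 1.09% and 0.648% after 4.5 h, and 0.827% and 0.416% after 7.5 h. In control cells the values were 0.637% and 0.808%, 0.577% and 0.657%, 0.534% and 0.564%, and 0.352% and 0.467%. The 7.5 h libraries lay below the 0 h ones in both genotypes, and the knockdown replicates spread widely from 4.5 h on. The slope was −0.14 in knockdown (SE 0.0369, limma adjusted p = 0.00578), near that of the typical gene (0.01 when centred), and the call ended without knockdown 7.5 h replicate 2 (−0.09, adjusted p = 0.0753). In control it was −0.09 (SE 0.0369) and missed the threshold (limma adjusted p = 0.0554), which it passed without knockdown 7.5 h replicate 1 (adjusted p = 0.0391) or replicate 2 (adjusted p = 0.0339). Other annotated transcripts shared 24.7% of its mRNA windows.

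PSMC5, another ATPase, had the highest slope of the class in control, 0.07 (limma adjusted p = 0.230), and 0.08 in knockdown (limma adjusted p = 0.177). Relative to the library medians it was higher in both, at 0.23 in knockdown (limma adjusted p = 0.00174) and 0.21 in control (limma adjusted p = 0.00373). In knockdown, PSMC5 stood at 0.345% and 0.487% before the chase, 0.565% and 0.480% after 1.5 h, 0.838% and 0.559% after 4.5 h, and 0.643% and 0.629% after 7.5 h. Over the same times control gave 0.332% and 0.161%, 0.193% and 0.127%, 0.392% and 0.309%, and 0.392% and 0.20%. The 7.5 h libraries lay above the 0 h ones in knockdown and overlapped them in control. PSMC1 had the highest 0 h rates of the 49 in knockdown, 2.47% and 3.70%, against 0.590% and 1.03% in control, at a CPM of 12.9 and with 13 named pseudogenes.

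The genes with PSMD symbols, non-ATPase subunits of the 19S particle and some of its assembly chaperones, moved both ways, and the steepest fall of each genotype was that of the chaperone PSMD5. In knockdown 2 of 14 rose (4.06% of all genes) and 3 fell (37.9%), and in control 1 rose (3.45%) and 4 fell (34.4%). Relative to the library medians 8 were higher (17.7% of all genes) and 0 lower (8.62%) in knockdown. In control 6 were higher (17.6%) and 0 lower (9.46%) on that scale. PSMD12, a scaffold subunit of the 19S lid, had the smallest adjusted p among the falls of this class. In knockdown, PSMD12 stood at 2.07% and 1.66% before the chase, 1.86% and 1.96% after 1.5 h, 1.46% and 1.28% after 4.5 h, and 0.612% and 0.565% after 7.5 h. In control the same times gave 0.739% and 0.682%, 0.688% and 0.587%, 0.388% and 0.522%, and 0.220% and 0.202%. From 1.5 h on no 2 times overlapped in either genotype. The slope was −0.21 in knockdown (SE 0.0305, limma adjusted p = 4.70e-05) and −0.20 in control (SE 0.0305, limma adjusted p = 8.58e-05). On the fitted line the rate plus the pseudocount of 0.05 would halve in 4.71 h in knockdown and 4.91 h in control. All of these calls held with each library left out, and relative to the library medians neither slope passed (adjusted p = 0.157 in knockdown and 0.119 in control).

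PSMD5, a chaperone that helps to build the 19S base, had the most negative slope in both genotypes at a CPM of 2.88. The PSMD5 rates in knockdown were 2.09% and 2.18% before the chase, 1.04% and 1.25% after 1.5 h, 0.366% and 0.703% after 4.5 h, and 0.882% and 0.396% after 7.5 h. The control libraries held 0.865% and 1.22%, 0.660% and 1.38%, 0.0734% and 0.443%, and 0.256% and 0.138% at those times. Both 7.5 h libraries lay below both 0 h libraries in each genotype. The control slope was −0.34 (SE 0.0914, limma adjusted p = 0.00844), a call that held without any 1 library. Relative to the library medians PSMD5 did not pass in either genotype (limma adjusted p = 0.111 in control and 0.516 in knockdown). The knockdown slope was −0.24 (SE 0.0914, limma adjusted p = 0.0482). That call held without control 1.5 h replicate 2, control 4.5 h replicate 1, control 7.5 h replicate 1 or knockdown 7.5 h replicate 1 and ended without any of the other 12 libraries, with an adjusted p over the 16 from 0.0182 to 0.143.

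PSMD8, a lid subunit, rose in both genotypes. PSMD8 in knockdown had 0.395% and 0.431% before the chase, 0.549% and 0.418% after 1.5 h, 0.577% and 0.445% after 4.5 h, and 0.663% and 0.753% after 7.5 h. Control values over these times were 0.132% and 0.165%, 0.141% and 0.185%, 0.207% and 0.246%, and 0.250% and 0.218%. The slopes of 0.09 in knockdown (SE 0.0214, limma adjusted p = 0.00416) and 0.08 in control (SE 0.0214, limma adjusted p = 0.0114) kept their calls with each library left out. Lid subunits thus lay at both ends, PSMD8 among the rises and PSMD12 among the falls. PSMD7, which pairs with the deubiquitinase PSMD14 in the lid, fell in both, at −0.12 in knockdown (SE 0.030, limma adjusted p = 0.00419) and −0.11 in control (SE 0.030, limma adjusted p = 0.0105), and both slopes turned to 0.03 when centred. The control call ended without control 7.5 h replicate 1 (−0.05, adjusted p = 0.140). The slopes of PSMD14 were −0.03 in knockdown (limma adjusted p = 0.326) and 0.00 in control (limma adjusted p = 0.993).

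The activators took different courses. PSME1 and PSME2 encode the interferon-induced alpha and beta subunits of the PA28 cap, and both rose in both genotypes. PSME3, the PA28 gamma cap, had no called slope, at 0.04 in knockdown (limma adjusted p = 0.573) and −0.01 in control (limma adjusted p = 0.870). PSME1 had the lowest rates of the 49 at 0 h and, at 4674 CPM, the highest abundance. In knockdown, PSME1 stood at 0.0887% and 0.0962% before the chase, 0.154% and 0.148% after 1.5 h, 0.211% and 0.194% after 4.5 h, and 0.220% and 0.270% after 7.5 h. Over the same times control gave 0.0622% and 0.0581%, 0.0872% and 0.0949%, 0.127% and 0.129%, and 0.133% and 0.140%. No 2 neighbouring times overlapped in either genotype. The slope was 0.13 in knockdown (SE 0.0176, limma adjusted p = 2.81e-05) and 0.10 in control (SE 0.0176, limma adjusted p = 4.19e-04). These rates lie near the pseudocount of 0.05, which shrinks the log2 values: with 0.01 in its place the slopes were 0.16 in knockdown and 0.14 in control.

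PSME4, the large nuclear activator PA200, had the second most negative slope in knockdown. The PSME4 rates in knockdown were 1.73% and 1.72% before the chase, 0.921% and 0.994% after 1.5 h, 0.780% and 0.556% after 4.5 h, and 0.521% and 0.358% after 7.5 h. Libraries of control cells held 0.693% and 0.647%, 0.576% and 0.581%, 0.485% and 0.403%, and 0.705% and 0.343% at those times. In knockdown no 2 neighbouring times overlapped, while in control the 7.5 h libraries spanned the 0 h ones, and at 7.5 h the genotypes overlapped. The slope was −0.23 in knockdown (SE 0.0385, limma adjusted p = 1.73e-04), which held with each library left out, and −0.06 in control (SE 0.0385, limma adjusted p = 0.264). When centred the knockdown slope did not pass (−0.08, limma adjusted p = 0.141). Without control 7.5 h replicate 1 the control slope was −0.12 (adjusted p = 0.0236). PSME4 shares exon sequence with ACYP2 on the opposite strand.

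PSMF1, the inhibitor PI31, fell in control. PSMF1 in knockdown had 1.32% and 1.07% before the chase, 0.973% and 1.23% after 1.5 h, 0.792% and 0.729% after 4.5 h, and 0.732% and 0.992% after 7.5 h. In control cells the values were 1.21% and 0.578%, 0.867% and 0.531%, 0.484% and 0.381%, and 0.379% and 0.267%. The 7.5 h libraries lay below the 0 h ones in each genotype, and the control replicates at 0 h differed by more than 2-fold. The slope was −0.17 in control (SE 0.0391, limma adjusted p = 0.00252), held with each library left out, and −0.07 in knockdown (limma adjusted p = 0.160). When centred the control slope did not pass (−0.04, limma adjusted p = 0.527).

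The assembly chaperones work in pairs, PSMG1 with PSMG2 and PSMG3 with PSMG4, and the second pair went opposite ways. In knockdown, PSMG3 stood at 1.32% and 1.43% before the chase, 1.49% and 1.01% after 1.5 h, 1.04% and 1.06% after 4.5 h, and 0.689% and 0.723% after 7.5 h. In control the same times gave 0.444% and 0.464%, 0.560% and 0.552%, 0.261% and 0.369%, and 0.139% and 0.193%. Rates at 7.5 h were below all earlier ones in both genotypes. The slope was −0.12 in knockdown (SE 0.0335, limma adjusted p = 0.0104; 0.03 when centred), a call that ended without knockdown 7.5 h replicate 1 (−0.11, adjusted p = 0.0553), and −0.18 in control (SE 0.0335, limma adjusted p = 4.54e-04), a call that held. When centred the control slope did not pass (−0.05, limma adjusted p = 0.309).

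PSMG4 in knockdown had 0.788% and 0.832% before the chase, 0.807% and 0.884% after 1.5 h, 1.38% and 1.52% after 4.5 h, and 1.48% and 1.17% after 7.5 h. Control values over these times were 0.217% and 0.545%, 0.406% and 0.248%, 0.498% and 0.515%, and 0.780% and 0.592%. The libraries at 7.5 h lay above those at 0 h in both genotypes. It rose at 0.11 in knockdown (SE 0.0394, limma adjusted p = 0.0377) and 0.13 in control (SE 0.0394, limma adjusted p = 0.0152). The knockdown call ended without any of the knockdown libraries except 7.5 h replicate 2, with slopes from 0.10 to 0.11 and an adjusted p up to 0.101. The control call was lost without control 0 h replicate 1 (0.10, adjusted p = 0.0811) or control 7.5 h replicate 1 (0.11, adjusted p = 0.0869). Both PSMG3 and PSMG4 overlap other genes on the opposite strand.

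Of the interacting proteins, PSMC3IP, a meiotic recombination factor, fell at −0.16 in knockdown (SE 0.0409, limma adjusted p = 0.00518) and −0.29 in control (SE 0.0409, limma adjusted p = 5.86e-05). The PSMC3IP rates in knockdown were 1.60% and 1.74% before the chase, 1.32% and 1.52% after 1.5 h, 0.793% and 1.06% after 4.5 h, and 0.544% and 0.942% after 7.5 h. The control libraries held 0.699% and 0.574%, 0.531% and 0.358%, 0.399% and 0.257%, and 0.0517% and 0.145% at those times. The libraries at 7.5 h lay below those at 0 h in both genotypes. The knockdown call ended without knockdown 7.5 h replicate 1 (−0.13, adjusted p = 0.0514). PSMC3IP was the 1 member called lower relative to the library medians, in control (−0.15, limma adjusted p = 0.0165), where PSMD5 had the lowest centred estimate (−0.20, limma adjusted p = 0.111). PSME3IP1 is a partner of the nuclear activator PSME3. In knockdown, PSME3IP1 stood at 0.878% and 0.807% before the chase, 1.42% and 1.32% after 1.5 h, 0.625% and 0.971% after 4.5 h, and 0.659% and 0.598% after 7.5 h. Over the same times control gave 0.515% and 0.423%, 0.652% and 0.513%, 0.339% and 0.238%, and 0.384% and 0.507%. The mean was highest at 1.5 h in both genotypes. PSME3IP1 had slopes of −0.09 in knockdown (limma adjusted p = 0.120) and −0.05 in control (limma adjusted p = 0.458).

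The next comparison asked whether the course of the rate differed between the genotypes. By limma 0 of the 49 mRNAs and 0 of 16241 genes had a slope difference, knockdown minus control, past the threshold (0% of all genes in either direction); 4 of the 49 (8.16%) and 1269 of all genes (7.81%) had an unadjusted p below 0.05. The estimates ran from −0.17 for PSME4 (SE 0.0545, limma adjusted p = 0.448) to 0.29 for PSMA8 (SE 0.0783, limma adjusted p = 0.399), with PSMB6 at 0.10 (SE 0.0287, limma adjusted p = 0.443). Of the members called in 1 or both genotypes, 11 rose in both (1.93% of all genes did), 5 fell in both (27.5% of all genes) and 0 were called in opposite directions (0.0185% of all genes). Those that rose in both were PSMA2, PSMA7, PSMB1, PSMB3, PSMB6, PSMB8, PSMB9, PSMD8, PSME1, PSME2 and PSMG4, and those that fell in both were PSMD5, PSMD7, PSMD12, PSMG3 and PSMC3IP. PSMA4, PSMA6, PSMC3 and PSMD6 rose and PSMA1, PSMB5, PSMC6 and PSME4 fell past the threshold in knockdown but not in control. PSMA3, PSMB4 and PSMB10 rose and PSMA8, PSMD11 and PSMF1 fell past it in control but not in knockdown. As no slope difference passed, these lists do not show that the genotypes differed. The sign of the estimate was the same in 42 of 49 (85.7%) and in 80.8% of all genes, shares that lie close together. The knockdown and control slopes, which come from separate libraries, had a Spearman correlation of 0.772 across the 49 genes and 0.607 across all genes; genes are not independent replicates.

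**Figure D3:**
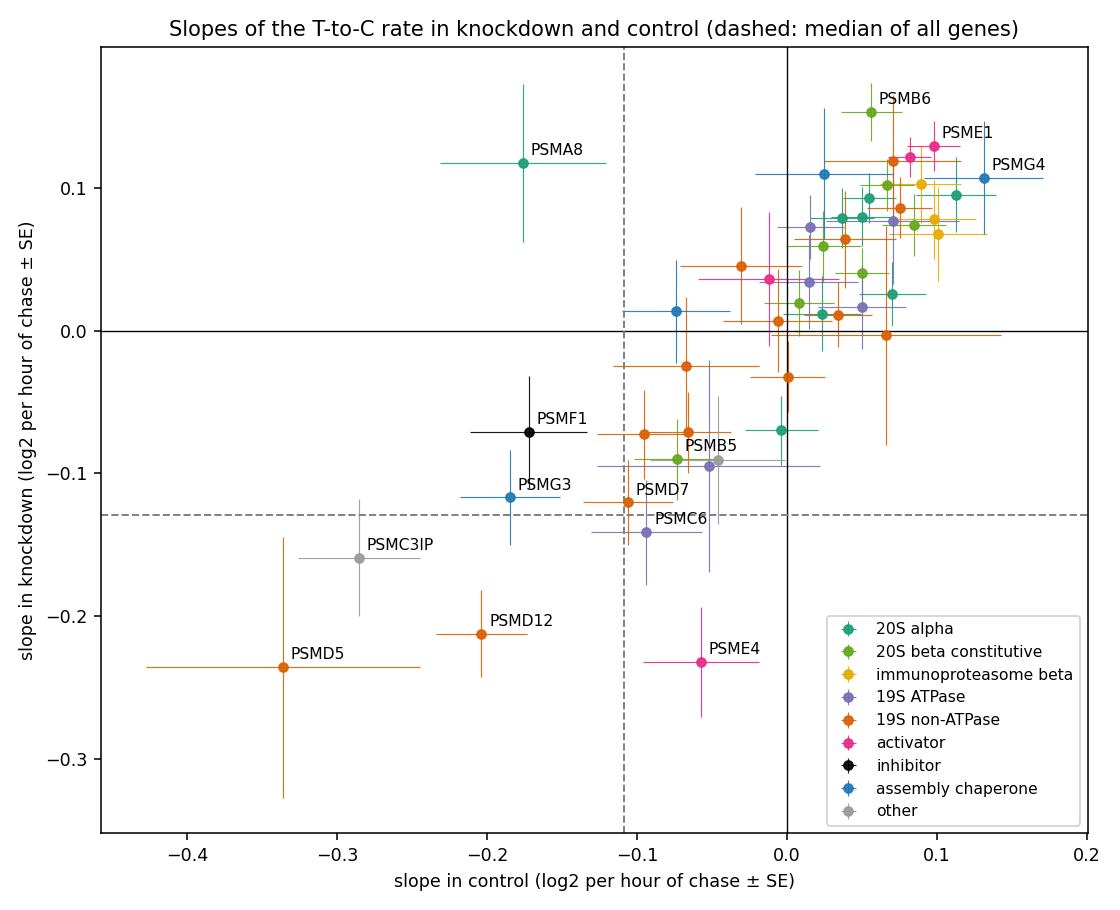
Slope of the T-to-C rate in knockdown against that in control, in log2 per hour of chase with standard errors from limma, for 49 proteasome genes coloured by class; dashed lines mark the medians of all genes, −0.13 in knockdown and −0.11 in control. Most points lie above and to the right of the dashed lines, with PSMD5, PSMD12 and PSMC3IP at the lower left, PSME4 low in knockdown and PSMA8 alone at the upper left.

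The chase was also read in 2 steps, the first from 0 to 1.5 h and the second from 1.5 to 7.5 h. In the first step 0 of 49 mRNAs were called in either direction by limma, in knockdown (0.0493% of all genes higher and 0.00616% lower) or in control (0.0185% higher and 0.0554% lower). At an unadjusted p below 0.05 there were 15 in knockdown (30.6%, against 9.68% of all genes) and 6 in control (12.2%, against 12.8% of all genes), so the control count is near that of all genes. The median early change was 0.28 log2 in knockdown and 0.11 in control, against −0.10 in knockdown and −0.13 in control over all genes, and 38 of 49 estimates were above 0 in knockdown (42.7% of all genes) and 28 in control (41.3% of all genes). Relative to the library medians 2 were higher in knockdown (0.456% of all genes) and 0 lower (0.0246%), and in control 2 were higher (0.308%) and 0 lower (0.0308%).

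In the second step 6 mRNAs rose (1.16% of all genes) and 8 fell (26.9%) in knockdown, and 7 rose (1.24%) and 6 fell (21.1%) in control. The median late change was 0.00 log2 in knockdown and 0.05 in control, against −0.85 in knockdown and −0.67 in control over all genes. When centred, 30 were higher (9.88% of all genes) and 1 lower (2.54%) in knockdown, and 26 were higher (9.54%) and 1 lower (3.74%) in control. PSMD12, the 1 lower member in both, had the firmest late fall in both, −1.62 in knockdown (SE 0.175, limma adjusted p = 9.23e-05) and −1.39 in control (SE 0.175, limma adjusted p = 3.35e-04). The number that fell in knockdown was 2 with knockdown 1.5 h replicate 1 left out and 5 with knockdown 7.5 h replicate 2 left out. The number that rose in control was 3 without control 1.5 h replicate 1, control 1.5 h replicate 2 or control 7.5 h replicate 1. Across the 49 genes the rate at 0 h and the late change, which share no library, had a Spearman correlation of −0.788 in knockdown and −0.608 in control, against −0.532 in knockdown and −0.371 in control over all genes. Members with a lower rate at 0 h thus tended to have the higher late change, which says nothing of the level they ended at.

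Between the genotypes, all 49 mRNAs had a higher rate in knockdown over the 4 times, in a comparison in which 69.6% of all genes were higher and 0.172% lower. The genotype effect, knockdown minus control in log2, had a median of 1.02 over the 49 and 1.02 over all genes. The larger share called among members thus came without a larger median effect. Their median CPM was 127, against 12.9 for genes with a matched mRNA, and the part of abundance was not tested. In 41 of the 49 both knockdown libraries exceeded both control libraries at all 4 times, a larger share than the 40.5% of all genes. At 0 h 39 were higher (35.6% of all genes) and 0 lower (0.179%), and at 7.5 h 40 were higher (33.5%) and 0 lower (0.308%). When centred, 0 were higher (0.0493% of all genes) and 1 lower (0.499%) at 0 h, and 0 higher (0.4%) and 0 lower (0.702%) at 7.5 h. PSMD10, a 19S assembly chaperone, was the 1 member whose call over the chase rested on single libraries (0.80, SE 0.319, limma adjusted p = 0.0363). It ended without control 0 h replicate 2, control 1.5 h replicate 1, control 7.5 h replicate 1, knockdown 0 h replicate 2, either knockdown 1.5 h library, knockdown 4.5 h replicate 2 or knockdown 7.5 h replicate 1, with estimates over all left-out libraries from 0.62 to 1.07 and an adjusted p up to 0.0837.

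Relative to the library medians, 2 mRNAs stood higher (1.45% of all genes) and 2 lower (4.59%) by limma, and 22 of 49 estimates were above 0. PSMD12 was 1.41 log2 higher in knockdown (SE 0.0847, limma adjusted p = 3.44e-09) and still 0.36 above the median shift (adjusted p = 0.0139). PSMB5 was 1.30 higher (SE 0.0682, limma adjusted p = 9.46e-10) and 0.25 above it (adjusted p = 0.0475). PSME1 had the smallest effect of the 49, 0.51 (SE 0.0447, limma adjusted p = 1.55e-07), and lay −0.54 from the median shift (adjusted p = 1.56e-05). Its effect was 0.66 with a pseudocount of 0.01 and 0.28 with 0.2, so its distance from the shift depends on that setting, and centred values were run at the pseudocount of 0.05 alone. PSMA4 was 0.79 higher (SE 0.0538, limma adjusted p = 1.11e-08) and −0.26 from the shift (adjusted p = 0.0144). The largest estimate was that of PSMC3IP, 1.69 (SE 0.191, limma adjusted p = 2.16e-06), which did not pass when centred (adjusted p = 0.0799). By class the medians ran from 0.77 in the activators to 1.2 in the constitutive beta subunits, leaving aside the inhibitor (0.79) and the pair of interacting proteins (1.31).

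**Figure D4:**
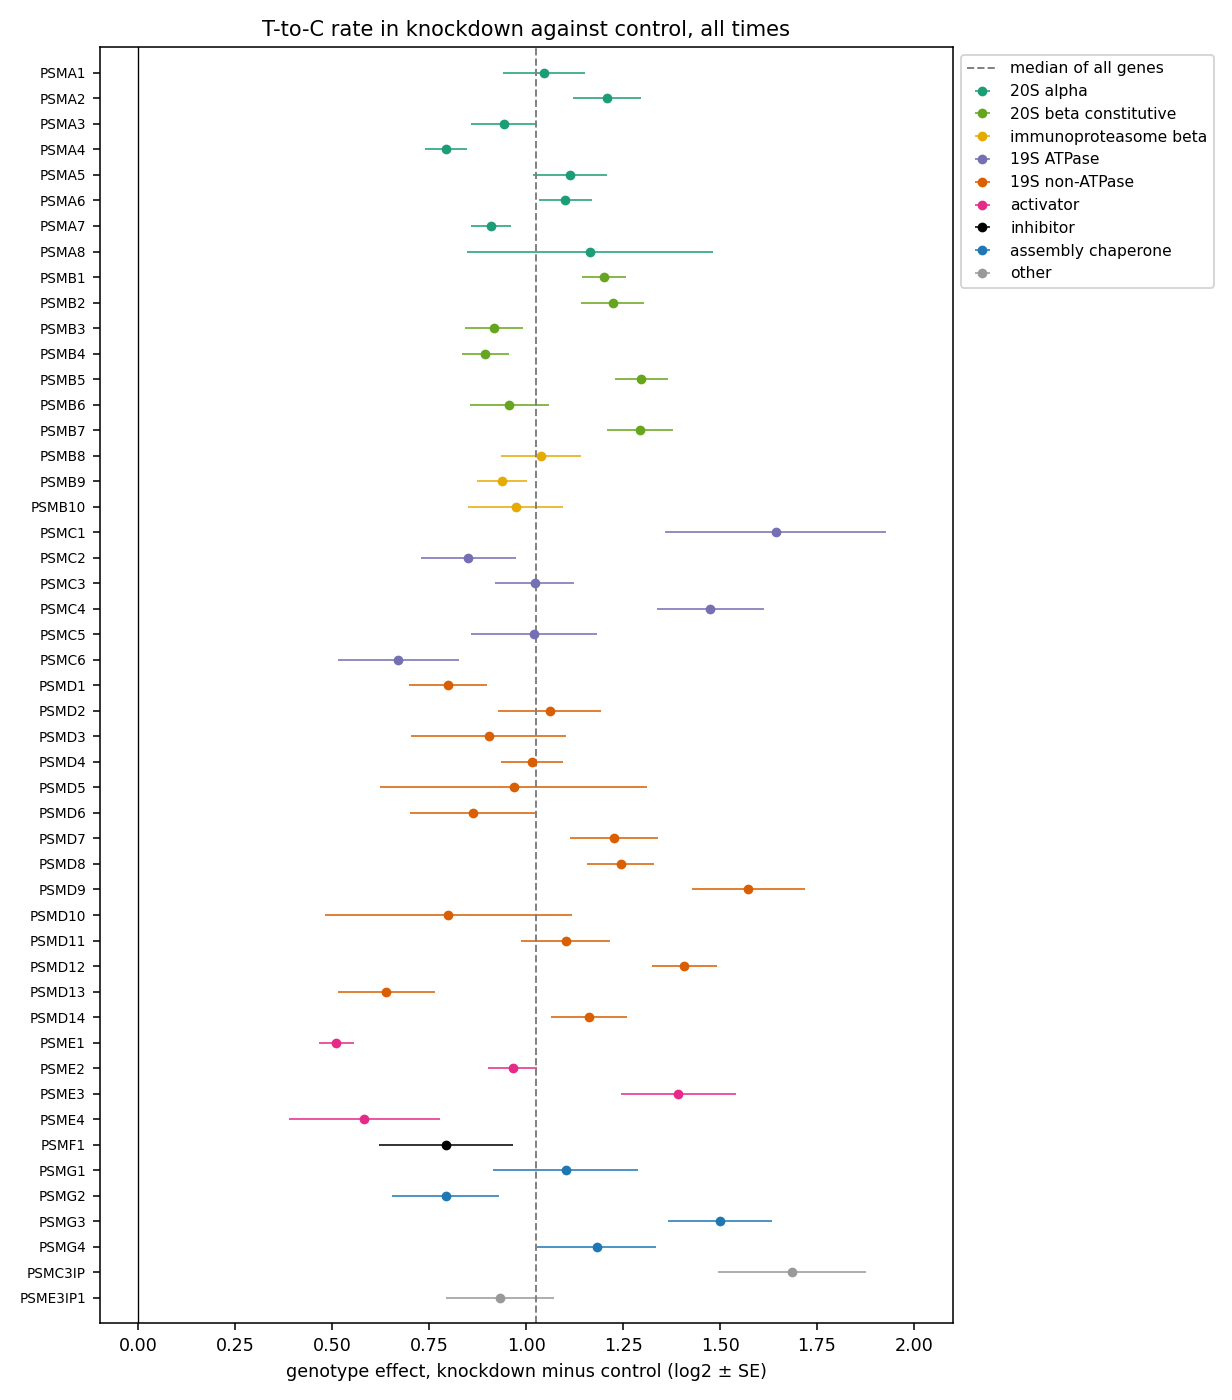
Genotype effect of each of 49 proteasome genes, knockdown minus control over all 4 times, in log2 with standard errors from limma, coloured by class; the dashed line is the median of all 16241 genes, 1.02. All points lie above 0, with PSME1 (0.51), PSME4 and PSMD13 lowest and PSMC3IP (1.69) and PSMC1 highest; relative to the dashed line 2 passed the test as higher and 2 as lower.

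What the falling and rising members shared outside the rates was then described. The 9 that fell in knockdown had a median 3′ UTR of 653 bases and the 15 that rose one of 122. In control the medians were 1398.5 bases for the 8 that fell and 113.5 for the 14 that rose. The Spearman correlation of 3′ UTR length with the slope was −0.490 in knockdown and −0.546 in control across the 49 genes, against −0.240 in knockdown and −0.234 in control across 12236 genes. PSMA4 and PSMA5, with long UTRs and slopes above 0, went against this order, as did PSMG3, with 368 bases and falling rates. Abundance moved with it: the correlation of CPM with the slope was 0.560 in knockdown and 0.621 in control across the 49, against 0.0848 in knockdown and 0.0986 in control across 16241 genes. The median CPM was 78.1 for those that fell and 308 for those that rose in knockdown, and 58.2 and 387 in control. The parts of length and abundance were not tested.

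**Figure D5:**
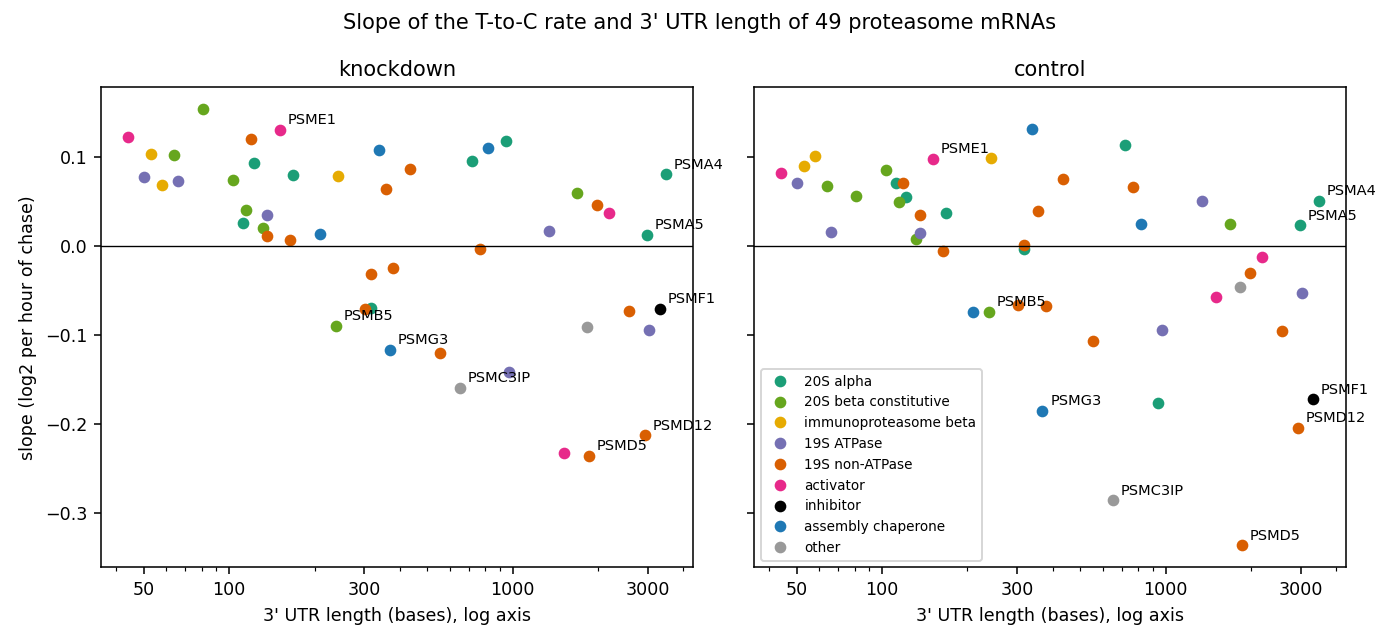
Slope of the T-to-C rate in log2 per hour against 3′ UTR length in bases on a log axis, in knockdown (left) and control (right), for 49 proteasome genes coloured by class. Genes with short UTRs sit mostly above 0, the falling genes sit mostly to the right, and PSMA4 and PSMA5 lie at the far right with slopes above 0.

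Sequence motifs were counted as letters on the sense strand of the mRNA. ATTTA occurred in the 3′ UTR of 25 of 49 members (51.0%) and of 69.6% of 12236 genes. It was in 7 of the 9 that fell and 4 of the 15 that rose in knockdown, and in 7 of 8 and 4 of 14 in control, but a longer UTR has more room for it. TATTTAT, which contains ATTTA, occurred in 6 members (12.2%), whose windows are shown above, and in 32.4% of genes. Of those 6, PSMB5, PSMD12 and PSMC3IP fell in knockdown, and PSMD12 and PSMC3IP fell in control. PSMB2, a beta subunit, had slopes of 0.06 in knockdown (limma adjusted p = 0.0659) and 0.02 in control (limma adjusted p = 0.482), and PSMG1 had 0.11 (limma adjusted p = 0.0659) and 0.03 (limma adjusted p = 0.718). PSME3, the nuclear PA28 gamma cap, had 0.04 (limma adjusted p = 0.573) and −0.01 (limma adjusted p = 0.870). PSMB6, with its single ATTTA, rose. GGACT, the core of a common m6A consensus, was in the mRNA of 44 members (89.8%) and of 91.5% of genes, and in the 3′ UTR of 19 (38.8%) and of 57.4%. Methylation itself was not measured here.

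Outside the PSM genes, a list of 28 factors that serve the proteasome was described, of which 27 symbols were found and 26 tested. The rates of 25 of the 26 were higher in knockdown by limma (69.6% of all genes), with a median genotype effect of 1.09 log2 against 1.02 for all genes. In knockdown 4 rose (4.06% of all genes) and 13 fell (37.9%), and in control 3 rose (3.45%) and 14 fell (34.4%). The median slopes were −0.11 in knockdown and −0.14 in control, against −0.13 in knockdown and −0.11 in control over all genes. When centred, 9 were higher (17.7% of all genes) and 3 lower (8.62%) in knockdown, and 7 were higher (17.6%) and 3 lower (9.46%) in control. The small 19S subunit SEM1 rose at 0.09 in both knockdown (limma adjusted p = 7.97e-04) and control (limma adjusted p = 9.81e-04). POMP, which matures the core particle, rose at 0.09 in knockdown (limma adjusted p = 0.00151) and 0.06 in control (limma adjusted p = 0.0234), as did UBB, a ubiquitin gene whose repeats other ubiquitin genes share, at 0.06 (limma adjusted p = 0.00146) and 0.04 (limma adjusted p = 0.0329).

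A few others of the list are given by name, with slopes before centring unless stated. On that scale 37.9% of all genes fell in knockdown and 34.4% in control. When centred, 3 of the 26 listed factors tested were lower in each genotype. NFE2L1 is the transcription factor that induces proteasome genes when the proteasome is inhibited; it fell at −0.13 in knockdown (limma adjusted p = 0.0298; 0.02 when centred) and −0.22 in control (limma adjusted p = 0.00122). NGLY1 and DDI2, which process the NFE2L1 protein, fell as well, NGLY1 at −0.20 in knockdown (limma adjusted p = 5.16e-04) and −0.32 in control (limma adjusted p = 9.48e-06), and DDI2 at −0.37 (limma adjusted p = 1.49e-04) and −0.30 (limma adjusted p = 0.00111). NFE2L2, a relative of NFE2L1, fell at −0.28 in knockdown (limma adjusted p = 7.18e-07) and −0.31 in control (limma adjusted p = 5.06e-07). Proteasome-bound ubiquitin ligase UBE3C fell at −0.25 in knockdown (limma adjusted p = 3.30e-05) and −0.19 in control (limma adjusted p = 5.20e-04). ADRM1, a ubiquitin receptor of the 19S particle, had a slope of −0.04 in knockdown (limma adjusted p = 0.375) and fell at −0.09 in control (limma adjusted p = 0.0412; 0.04 when centred).

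Several members share sequence with copies or overlap other genes, and their rates could mix reads. The share of 50-base windows of the mRNA found in another annotated transcript was 85.6% for PSMA6, 51.0% for PSMA2, 48.4% for PSMA1, 35.8% for PSMD9, 29% for PSMC1 and 21.9% for PSMD4. It was 0 for PSMB5, PSMB6, PSME1, PSMF1 and PSMA8 and 1.65% for PSMD12. Beside PSMB8 and PSMB9, PSMC5 overlaps FTSJ3, PSMD13 overlaps SIRT3, PSMC3IP overlaps MLX and PSME1 overlaps EMC9, each on the opposite strand.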

How the data were processed

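Per the labels' protocols, polyadenylated RNA was extracted after a 4sU pulse and a uridine chase. The submitters' processing notes name HISAT2 2.1.0 as a tool beside CASAVA, and hg38 as the build; the sources used here give neither the annotation nor the tool that called conversions. The authors deposited 1 fraction per gene and library, read from the values and the assay as the T-to-C rate and shown here in percent. Per the file headers the deposited table also holds 1 CPM column, whose library is not stated and which served as a measure of abundance. Columns beginning with S were taken as knockdown by elimination.

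Rates in percent plus 0.05 were put on the log2 scale. The fits used limma 3.58.1 (R 4.3.3), a variance trend on log2(CPM + 0.01) and a threshold of 0.05 after Benjamini-Hochberg adjustment. All 16241 genes that reached 1 CPM and were not at 0 throughout entered them. The genotype effect had time as a factor of 4 levels, slopes used hours of chase, and the other contrasts compared 8 group means. A centred version of each comparison took the median log2 rate of a library from its values first. Other pseudocounts, CPM minimums, an untrended variance, a replicate block and each library left out were alternatives. The fits were tested on simulated data.

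The members and lists were chosen with earlier results of these data known. Values in every library were given for the catalytic pairs, the members with the highest and lowest control slope in each class, and members past the threshold for the centred genotype effect; other members and listed factors are named where a count or sequence turns on them and were chosen after their values were seen. Replicate numbers did not pair the libraries: deviations of same-numbered libraries correlated between −0.0239 and 0.0396 over 28 pairs of groups, with 0 over 0.1. All 49 gene IDs were found in GENCODE 29, on the same assembly. Markers of other cell types are not reported here.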

Additional observations from a re-analysis of the deposited data

Results flagged for a closer look

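PSMA8 was picked out because its libraries lay on opposite sides in the genotypes: both knockdown libraries at 7.5 h (0.272% and 0.338%) lay above both at 0 h (0.0929% and 0.133%), while both control libraries at 7.5 h (0% and 0.0396%) lay below both at 0 h (0.131% and 0.133%). Such a pattern occurred in 2.24% of all genes, so 1 of 49 members is about the share seen over all genes. The knockdown slope did not pass (limma adjusted p = 0.0999), while the fall in control did (limma adjusted p = 0.0194). When centred this was reversed: the knockdown slope passed (0.27, limma adjusted p = 0.00162) and the control slope did not (−0.04, limma adjusted p = 0.618). The slope difference, knockdown minus control, was 0.29 log2 per hour and did not pass over all genes (limma adjusted p = 0.399; 0.292 to 0.564 over all alternatives). It was 0.48 with a pseudocount of 0.01 and 0.14 with 0.2. PSMA8 shares no 50-base window with another transcript. The rates lie near the pseudocount, and the number of bases behind them is unknown.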

How the results depend on the processing

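Centring on the library medians changed most counts: over the chase 2 members were higher and 2 lower, at 0 h 0 higher and 1 lower, at 7.5 h 0 higher. Centred slopes gave 35 higher and 0 lower in knockdown and 30 and 1 in control; early changes gave 2 higher in each genotype; late changes gave 30 higher and 1 lower in knockdown and 26 and 1 in control. Among members with values given in every library, centring turned the sign of some called results. Genotype effects over the chase turned for PSMA4 (−0.26), PSMB6 (−0.0926), PSMB8 (−0.0116), PSMB9 (−0.11), PSMB10 (−0.0764) and PSMC5 (−0.0279). They also turned for PSMC6 (−0.38), PSMD5 (−0.0810), PSME1 (−0.54), PSME4 (−0.47), PSMF1 (−0.26) and PSME3IP1 (−0.12). Knockdown slopes turned for PSMB5 (0.0602), PSMC6 (0.00897) and PSMG3 (0.0333). Late changes turned for PSMB5 (0.13 in knockdown, 0.11 in control) and PSMG3 (0.21 in knockdown). Among the other members, called slopes turned for PSMA1 (0.08 in knockdown), PSMD7 (0.03 in both genotypes) and PSMD11 (0.04 in control). Their called late changes turned for PSMA1 (0.42 in knockdown) and PSMD11 (0.17 in knockdown, 0.13 in control). Over all 49, 22 centred genotype effects were above 0. By construction, centring removes the shift common to all genes.

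One member rose early in knockdown with a pseudocount of 0.01 or 0.2, a CPM minimum of 20 or none, and 2 in control with a minimum of 20. Without the variance trend 3 rose late in knockdown and 1 in control, and without a CPM minimum 5 fell late in knockdown. With 1 library left out the counts ranged as follows: higher over the chase 48 to 49, at 0 h 30 to 39, at 7.5 h 32 to 41. Rising and falling slopes were 11 to 16 and 5 to 10 in knockdown, and 7 to 15 and 7 to 10 in control. Early rises in knockdown were 0 to 1; late rises and falls were 4 to 6 and 2 to 9 in knockdown, and 3 to 7 and 4 to 7 in control. The cause was not tested.

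The replicate block ended the call for the PSMD5 slope in knockdown (−0.24, limma adjusted p = 0.0505) and left 15 rising and 8 falling in knockdown and 14 and 8 in control; it changed no other call among the named genes. Whether the mismatch background or depth limits low rates could not be measured.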
